A study of Rattus norvegicus with 24 samples.

Results

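Expression of 29 genes of the synaptic vesicle and its release machinery was compared across 24 arrays of the rat nucleus accumbens (NAc), a part of the ventral striatum. The genes were found by symbol among 68842 transcript clusters of a whole-transcript array. Each of the 29 symbols belonged to 1 cluster, and each cluster lay on the chromosome that RefSeq gives for the gene. A transcript cluster is the set of probes that the array assigns to 1 gene, here 40 to 573 probes, and its value is a log2 signal. Of the 29 genes, 26 passed the study's filter on low signal, a CT mean above the CT mean of the bioB spike (9.45), as did 13.1% of all clusters (9044 clusters). Unc13a passed it narrowly, with a mean over all arrays of 9.53. Stx1a (7.36), Syngr1 (7.73) and Doc2b (7.20) did not pass, and on 0 of 24 arrays were they above the 95th percentile of the negative controls, so that nothing is read from their levels.

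All rats were male Sprague Dawley rats with intravenous catheters, and each array held RNA of 1 rat. The shock-resistant (SR, 6 arrays) and shock-sensitive (SS, 6 arrays) rats had self-administered methamphetamine, and their presses were then punished by mild footshocks. SR rats went on taking the drug, whereas SS rats lowered their intake. The yoked rats (YSR, 3 arrays, tied to SR partners, and YSS, 3 arrays, tied to SS partners) received saline and footshocks that did not depend on what they did, and the control rats (CT, 6 arrays) self-administered saline. Tissue was taken after prolonged withdrawal, soon after a test of cue-induced drug seeking. SR and SS rats were sorted by their own behavior, so that drug intake, shocks, the recent test and differences that existed beforehand cannot be told apart in SRvsCT, SSvsCT or SRvsSS. The array labels of CT, SR and SS carry a mark that those of YSR and YSS lack. No source used here says what it means, and if it stands for a batch, batch and group cannot be told apart wherever a yoked group enters.

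A synaptic vesicle is filled with transmitter, docks at the active zone of the nerve terminal and fuses when calcium enters. Fusion is driven by SNARE proteins on the vesicle and the plasma membrane and is triggered by the calcium sensor synaptotagmin, after which NSF takes the spent SNARE complex apart. The vesicle membrane is then retrieved by clathrin, dynamin and their partners, acidified by a proton pump and refilled. In the NAc such terminals belong to local medium spiny neurons and interneurons and to inputs from cortex, amygdala, hippocampus and midbrain, while the RNA in the tissue comes mostly from cell bodies that lie there.

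The tissue showed markers of striatal neurons, which do not tell the NAc from the rest of the striatum. All 9 medium spiny neuron markers examined passed the filter, among them Ppp1r1b, Drd1, Drd2 and Penk. Their summed level varied within groups, from 16.43 to 17.68 in CT, 16.51 to 17.78 in SR and 15.95 to 17.79 in SS. Of 7 markers of cortical glutamatergic neurons 3 passed the filter (Slc17a7, Rorb and Lamp5), and the other 4, Neurod6, Neurod2 and Tbr1 among them, were above the 95th percentile of the negative controls on 0 arrays. The summed level of the cortical list ran from 13.14 to 15.02 over CT, SR and SS. Above that percentile on 0 arrays were also the hypothalamic markers Avp, Hcrt, Pmch and Pomc. The median log2 signal over the tested clusters was lowest in CT replicate 3 (11.61) and highest in SS replicate 4 (11.89). A few arrays stood apart. Oxytocin (Oxt), a peptide of hypothalamic neurons, was above the 95th percentile of the negative controls in SR replicate 3 (11.12) and SR replicate 6 (12.51) and on no other array. On the other arrays Oxt was at 8.95 (SS replicate 3) or less. Ttr, a choroid plexus gene, was at 15.88 in SS replicate 1 and at 6.61 or less on the other arrays. Results are given without these arrays where their counts rest on them.

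Over the 26 tested genes, the mean log2 signal per array was 13.20 ± 0.097 (SD) for the 6 CT arrays, 13.35 ± 0.063 for the 6 SR arrays and 13.18 ± 0.070 for the 6 SS arrays. It was 13.29 ± 0.076 for the 3 YSR arrays and 13.18 ± 0.053 for the 3 YSS arrays. SR arrays ran from 13.26 to 13.44 and overlapped CT arrays (13.02 to 13.28) only at their lower end. Of the 26 genes, 18 had their highest group mean in SR, 4 in YSR, 3 in YSS, 1 in CT and 0 in SS. The lowest mean was in YSS for 12 genes and in SS for 7. All 4 endocytosis genes, both tested calcium sensors, 7 of 8 vesicle proteins and 5 of 7 SNARE fusion genes were highest in SR, whereas 0 of 5 active zone genes were. In bulk tissue, fewer cells of a type and less RNA per cell cannot be told apart.

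**Figure D1:**
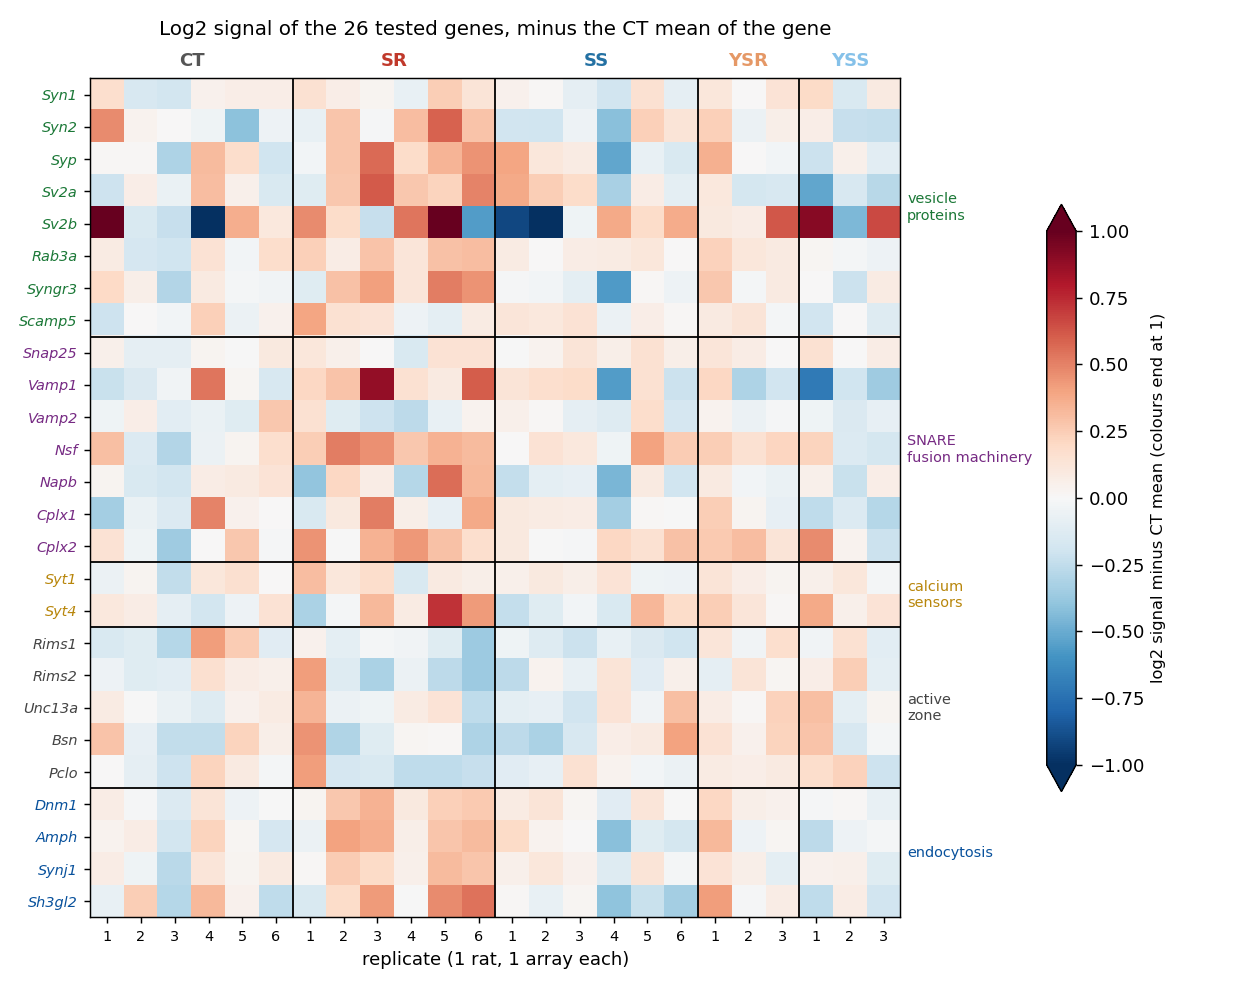
Log2 signal of the 26 tested genes on each of the 24 arrays, as the difference from the mean of the gene in CT. Columns are replicates within groups, rows are genes ordered by role, and red is above the CT mean. SR columns are mostly red outside the active zone block, where SR replicate 1 differs from the other 5 SR arrays.

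At an adjusted p under 0.05, 0 of 26 genes were called in any of 8 comparisons or in the F test of 5 groups (limma, Benjamini-Hochberg over 9044 clusters). In SRvsCT, 1.99% of all tested clusters were called. In the F test 0.0111% were called, and in each of the other 7 comparisons 0%. At an unadjusted p under 0.05, 8 of 26 genes passed the F test, with 10.8% of all tested clusters. These were, from the smallest p up, Vamp1, Nsf, Sv2a, Dnm1, Rab3a, Syngr3, Sh3gl2 and Amph, with an adjusted p from 0.267 (Vamp1 and Nsf) to 0.446 (Amph). No gene of the set met the study's own criterion of a 1.7-fold difference with an unadjusted p under 0.05, in any comparison (0 genes). The differences below are therefore small, and those with an unadjusted p under 0.05 are given as such and not as calls.

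Rats that kept taking methamphetamine under punishment were set against saline controls in SRvsCT. At an unadjusted p under 0.05, 4 of 8 vesicle proteins, 3 of 7 SNARE fusion genes and 3 of 4 endocytosis genes were higher in SR than in CT, by 1.14-fold to 1.29-fold, and 0 of 5 active zone genes and 0 of 2 calcium sensors. Together 10 of 26 genes were higher (38.5%) and 0 lower. Over all tested clusters 15.9% were higher and 5.38% lower, and over 3485 tested named genes, 1 cluster each, 28% were higher and 1.12% lower. The median log2 difference was 0.19 over the 26 genes, 0.03 over all tested clusters and 0.11 over the named genes. Named genes at large were thus also higher more often than all clusters were, and 21 of 26 differences were above 0 against 57% of all clusters and 78.5% of named genes.

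The smallest adjusted p belonged to Nsf, the ATPase that disassembles SNARE complexes, on chromosome 10 from 91878650 to 92008052 in the deposited coordinates, for which no source used here names a genome build. Its log2 signal in CT had a lowest value of 15.38, a median of 15.66 and a highest of 15.97, and in SR these were 15.92, 16.01 and 16.18. Every SR array was above the CT mean, and 4 of 6 were above every CT array. The log2 difference was 0.36 (95% interval 0.16 to 0.56), or 1.28-fold (limma, adjusted p = 0.0533).

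Rab3a, the small GTPase that tethers vesicles to the release site (chromosome 16, 20435098 to 20439238), had values of 14.82, 15.04 and 15.20 in CT (lowest, median, highest) and of 15.10, 15.28 and 15.33 in SR. Its values in 4 of 6 SR arrays were above every CT array, with a log2 difference of 0.22 (0.08 to 0.36, adjusted p = 0.0721). Dnm1, the neuronal dynamin that pinches endocytic vesicles off the membrane (chromosome 3, 11338073 to 11382134), went from 13.82, 13.95 and 14.08 in CT to 13.98, 14.21 and 14.30 in SR. Here too 4 of 6 SR arrays were above every CT array, and SR replicate 1 was the lowest. The difference was 0.21 (0.07 to 0.34, adjusted p = 0.0750 by limma).

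Among the other vesicle proteins, Syp, the abundant membrane protein synaptophysin, was higher by 0.30 (0.02 to 0.58), Sv2a, a glycoprotein of the vesicle membrane, by 0.29 (0.03 to 0.55), and Syngr3, a synaptogyrin, by 0.28 (0.04 to 0.51), with adjusted p from 0.160 (Syngr3) to 0.196 (Syp). Syn2, a synapsin that ties vesicles into the reserve pool, had a difference of 0.23 (-0.05 to 0.51), and its relative Syn1 one of 0.09 (-0.07 to 0.25). Scamp5, a secretory carrier membrane protein, differed by 0.10 (-0.06 to 0.27). The widest interval was that of Sv2b, a paralog of Sv2a, at 0.25 (-0.49 to 0.99), and its CT values ran from 9.38 to 11.88.

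Vamp1 and Vamp2 encode the vesicle SNAREs synaptobrevin 1 and 2, and Vamp1 was higher in SR by 0.37 (0.04 to 0.70, adjusted p = 0.180) while Vamp2 had a difference of -0.08 (-0.25 to 0.09). In SR, Vamp1 was 12.94 in replicate 3 and 12.67 in replicate 6, and 12.15 to 12.35 in the other 4 arrays. In CT, replicate 4 was at 12.60 and the other 5 arrays at 11.85 to 12.09. Cplx2, a complexin that clamps the assembled SNARE complex, was higher by 0.28 (0.05 to 0.51, adjusted p = 0.142), and Cplx1 had a difference of 0.14 (-0.12 to 0.40). The plasma membrane SNARE Snap25, with a mean over all arrays of 18.44, differed by 0.05 (-0.07 to 0.17), and Napb, the adaptor that brings NSF to the SNARE complex, by 0.08 (-0.19 to 0.35). Whether Vamp1 and Vamp2, or Cplx1 and Cplx2, differ from each other in response was not tested.

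Both tested calcium sensors had intervals that held 0. Syt1, the sensor of fast release, differed by 0.10 (-0.06 to 0.25), and Syt4, a synaptotagmin induced by neuronal activity, by 0.20 (-0.07 to 0.48). Of the 4 endocytosis genes, 3 were higher at the unadjusted level: Dnm1, Synj1 (0.18, 0.03 to 0.34), the lipid phosphatase that strips the clathrin coat, and Amph (0.23, 0.01 to 0.44), which recruits dynamin to the neck of the bud. The membrane-bending endophilin Sh3gl2 had a difference of 0.24 (-0.03 to 0.52).

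In the active zone the 5 genes had differences from -0.12 to 0.03 (median -0.10). These were Rims1 (-0.10, -0.31 to 0.11) and Rims2 (-0.12, -0.34 to 0.10), which hold calcium channels and vesicles together, Unc13a (0.03, -0.17 to 0.24), the priming factor Munc13-1, and the scaffolds Bsn (-0.04, -0.33 to 0.24) and Pclo (-0.11, -0.32 to 0.11). SR replicate 1 was the highest SR array for all 5 of them and the lowest for all 4 endocytosis genes. For Pclo it had 13.87, while the other 5 SR arrays had 13.19 to 13.30 and CT arrays had 13.24 to 13.67. These intervals do not show that these genes were alike in SR and CT.

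SR replicate 1 and the Oxt-rich arrays bore on these counts. Without SR replicate 1, 13 genes were higher and 2 lower (Pclo and Rims2, both of the active zone) at the unadjusted level, and 4 were called, all higher, Dnm1 (adjusted p = 0.0186), Nsf (0.0209), Syngr3 (0.0340) and Sv2a (0.0447). In place of 10 genes, 4 were higher when CT replicate 3 or SR replicate 6 was left out, 5 when SR replicate 3 was, and 6 when CT replicate 6 or SR replicate 5 was. Without both SR arrays high in Oxt, a setting chosen after seeing the data, it was 4 (Cplx2, Dnm1, Nsf and Rab3a) and the median difference was 0.13. The count was 5 of 26 with quantile normalization, beside 15.4% of all clusters higher, and 4 of 26 with equal array medians, beside 10.9%. Array weights in the fit called 7 genes, and the share of all clusters called with them is not given here. A fit with 1 cluster per gene called 3 (Dnm1, Nsf and Rab3a), beside 11.1% of named genes. Nsf was called without CT replicate 1 (adjusted p = 0.0362) or YSS replicate 1 (0.0408), and Rab3a without SR replicate 2 (0.0412). Oligodendrocyte markers moved with the comparison, 3 of 6 tested being higher in SR at an unadjusted p under 0.05 (among them Mag by 0.65 and Mobp by 0.25), and the summed level of the list ran from 15.96 to 16.39 in CT and from 16.19 to 16.81 in SR. Of 5 tested neuronal markers 1 was higher (Tubb3 by 0.29), and of 9 medium spiny neuron markers 0. Both tested hemoglobin genes had differences below 0, Hba1 of -0.44 (-0.88 to -0.01) and Hbb-b1 of -0.69 (-1.61 to 0.23), with a summed level of the blood cell list from 18.23 to 19.20 in CT and from 17.58 to 18.89 in SR. The part of these cells in the result was not tested.

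**Figure D2:**
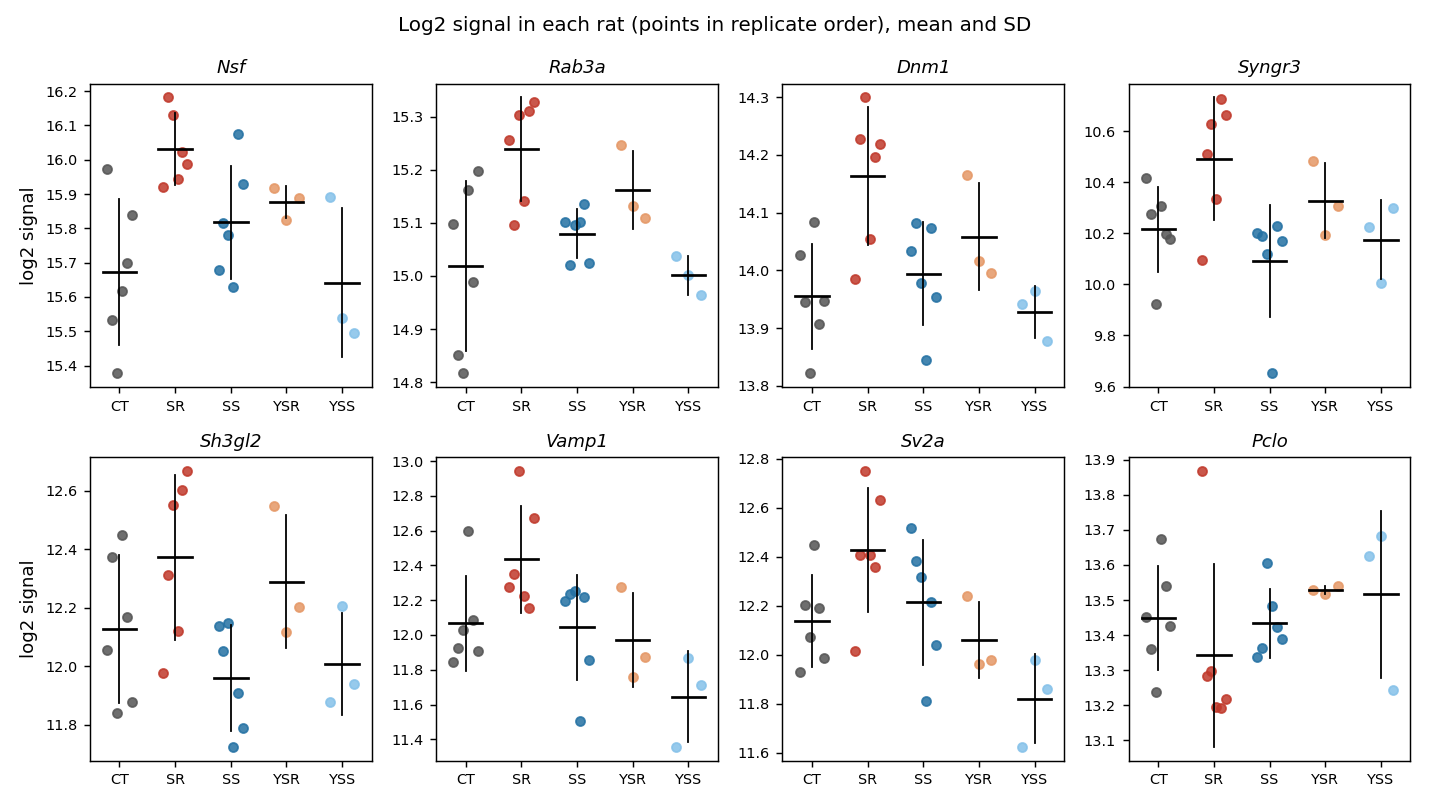
Log2 signal of 8 genes in each rat, by group, with the group mean (bar) and SD (line). Nsf, Rab3a and Dnm1 had the smallest p in SRvsCT, Syngr3 and Sh3gl2 in SRvsSS, and Vamp1 and Sv2a in comparisons with yoked rats. In Pclo, SR replicate 1 stands at 13.87 above the other 5 SR arrays.

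SS rats, which had the same drug access and lowered their intake, were set against controls in SSvsCT. With an unadjusted p under 0.05 there were 0 of 26 genes, against 6.93% of all tested clusters. The median difference was -0.02, and over all clusters it was 0.07. Differences above 0 were seen for 10 of 26 genes, for 72.5% of all clusters and for 69.3% of named genes. The smallest p was that of Nsf, whose SS values were 15.63, 15.80 and 16.08 (lowest, median, highest), between those of CT and SR. Its difference from CT was 0.15 (-0.06 to 0.35, adjusted p = 0.872 by limma). Rims1 had 11.72, 11.80 and 11.89 in SS and 11.65, 11.81 and 12.35 in CT, a difference of -0.13 (-0.34 to 0.07). CT replicates 4 and 5 held the highest Rims1 values, 12.35 and 12.19. Sh3gl2 had a difference of -0.17 (-0.44 to 0.10), with 2 of 6 SS arrays below every CT array.

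Compulsive and abstaining rats were compared directly in SRvsSS. Here 9 of 26 genes were higher in SR at an unadjusted p under 0.05 (34.6%) and 0 lower. Over all tested clusters 5.76% were higher and 6.77% lower, and over the named genes 13% and 1.75%. The median difference was 0.16, against -0.04 over all clusters and 0.07 over the named genes. Of the 26 differences 21 were above 0, against 42.7% of all clusters and 71.5% of named genes, and with quantile normalization 56.6% of all clusters were. By role these were 4 of 8 vesicle proteins, 2 of 7 SNARE fusion genes, 3 of 4 endocytosis genes, 0 of 2 calcium sensors and 0 of 5 active zone genes. SRvsCT and SRvsSS share the SR arrays, so that genes found in both are not independent observations.

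Syngr3 had values of 9.65, 10.18 and 10.23 in SS (lowest, median, highest) and of 10.09, 10.57 and 10.73 in SR. These are near background, since Syngr3 was above the 95th percentile of the negative controls on only 16 of 24 arrays. SS replicates 1, 2, 3 and 4 and SR replicate 1 were among those below it. Of the SR arrays 5 of 6 were above every SS array, and the exception was replicate 1. The difference was 0.40 (0.16 to 0.64, adjusted p = 0.378 by limma), or 1.32-fold. Sh3gl2 had 11.72, 11.98 and 12.15 in SS and 11.98, 12.43 and 12.67 in SR, with 4 of 6 SR arrays above every SS array. It differed by 0.41 (0.14 to 0.69), the largest fold among these 9 genes (1.33-fold). Amph had 12.04, 12.39 and 12.64 in SS and 12.40, 12.75 and 12.85 in SR, a difference of 0.31 (0.09 to 0.52).

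The other 6 genes were Vamp1 (0.39, 0.06 to 0.73), Syp (0.32, 0.05 to 0.60), Syn2 (0.31, 0.04 to 0.59), Nsf (0.21, 0.01 to 0.41), Dnm1 (0.17, 0.03 to 0.30) and Rab3a (0.16, 0.02 to 0.30). Rab3a had little spread in SS, from 15.02 to 15.14, and 5 of 6 SR arrays lay above that range. Cplx2 and Sv2a, which were higher in SRvsCT, differed from SS by 0.16 (-0.07 to 0.39) and 0.21 (-0.05 to 0.47). Without SR replicate 1, 13 genes were higher and 2 lower (Pclo and Rims2), with Syngr3 and Sh3gl2 called (adjusted p = 0.0278 and 0.0418). The count of higher genes was 5 without SR replicate 3, 4 without SS replicate 4, and 3 (Amph, Syn2 and Syngr3) without both SR arrays high in Oxt. Here too the shares of all clusters with arrays left out are not given.

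**Figure D3:**
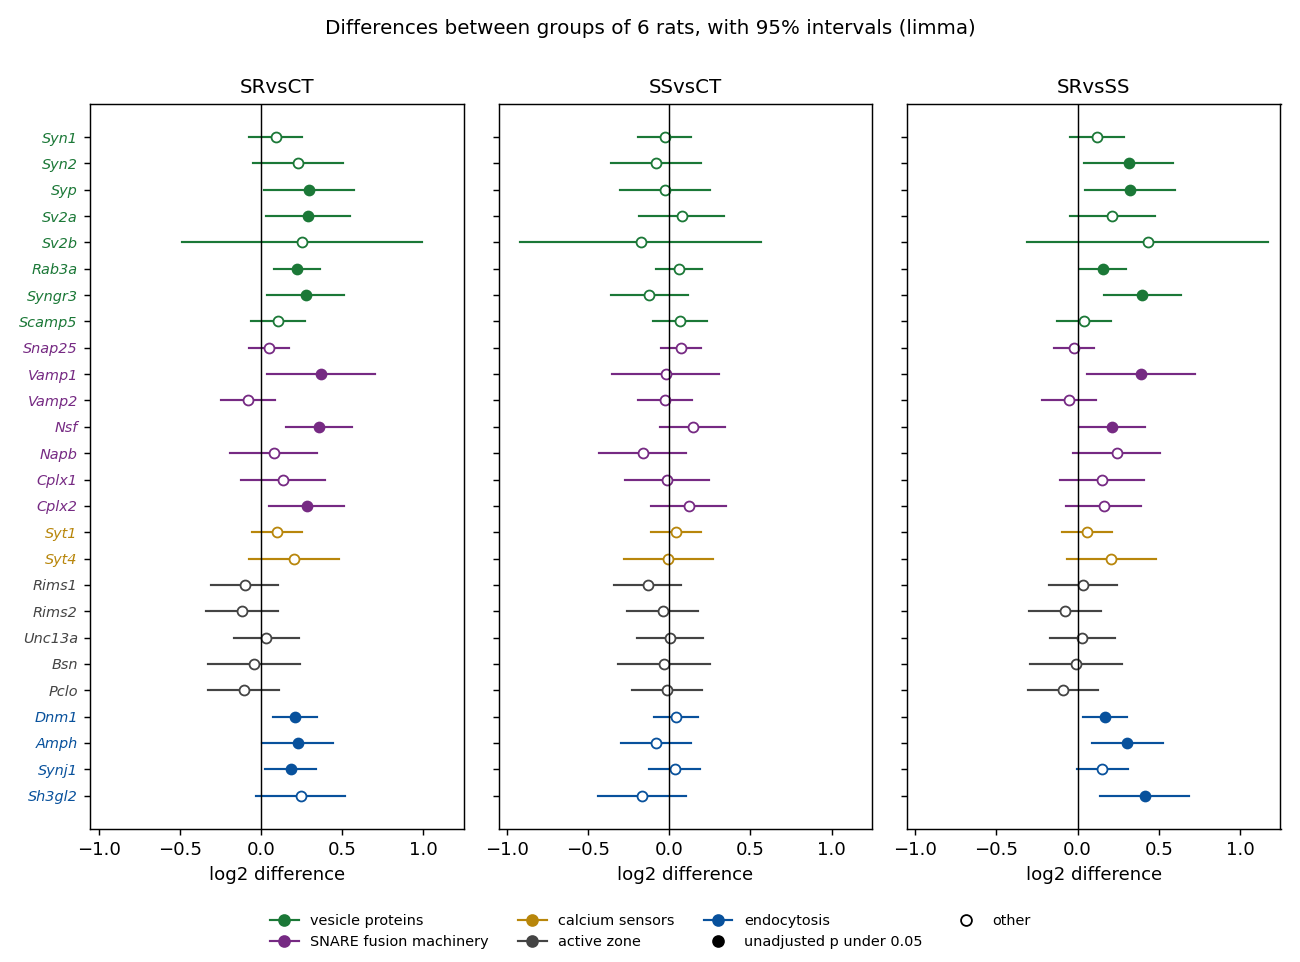
Log2 difference of each tested gene in SRvsCT, SSvsCT and SRvsSS (points) with its 95% interval (lines), coloured by role. Filled points have an unadjusted p under 0.05, and 0 of them have an adjusted p under 0.05. The 5 active zone genes lie around 0 in each panel.

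Yoked rats received shocks and no drug. In YSRvsCT 0 of 26 genes had an unadjusted p under 0.05, against 3% of all tested clusters (2.65% higher), and 22 of 26 differences were above 0, against 70.1% of all clusters and 71.9% of named genes. The 3 smallest p were 0.1 or slightly more, for Rab3a (difference 0.14, -0.03 to 0.32), Nsf (0.20, -0.04 to 0.45) and Cplx2 (0.23, -0.05 to 0.51). Nsf had 15.92, 15.82 and 15.89 in YSR, Rab3a 15.25, 15.13 and 15.11, and Cplx2 13.63, 13.68 and 13.50. For each of these genes all 3 YSR arrays were above the CT mean, and 0 or 1 of them was above every CT array. YSR replicate 1 was the highest of the 3 YSR arrays for 17 of the 26 genes.

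In YSSvsCT 1 of 26 genes was lower (0.63% of all tested clusters) and 0 were higher (2.19%), where 2.82% of clusters passed in either direction, and 11 of 26 differences were above 0 (60.7%, and 66.8% of named genes). Vamp1 had 11.36, 11.87 and 11.71 in YSS and a difference from CT of -0.42 (-0.83 to -0.01, adjusted p = 1 by limma), and 2 of 3 YSS arrays were below every CT array. Sv2a had 11.62, 11.98 and 11.86, a difference of -0.32 (-0.64 to 0.00), and Cplx1 had 14.12, 14.24 and 14.09, a difference of -0.22 (-0.54 to 0.09). The count was 0 without CT replicate 3, 4 or 5, YSS replicate 1 or YSS replicate 3, and 2 with the addition of Sv2a without CT replicate 1 or 6, SR replicate 1 or 3, SS replicate 1 or 4, or YSS replicate 2. Both tested hemoglobin genes were lower in this comparison at an unadjusted p under 0.05, with differences of -0.65 (-1.18 to -0.12) for Hba1 and -1.58 for Hbb-b1. Of 5 tested neuronal markers 1 was lower (Nefl), and of 9 medium spiny neuron markers 0. The part of these cells in the result was not tested. In YSRvsYSS 0 of 26 genes passed (0.962% of all tested clusters), and 22 of 26 differences were above 0 (63.3%, and 52.7% of named genes). There the differences were 0.23 (-0.05 to 0.52) for Nsf, 0.16 (-0.04 to 0.36) for Rab3a and 0.29 (-0.08 to 0.65) for Cplx1.

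Each drug-taking group was also set against its own yoked partners. In SRvsYSR 2 of 26 genes were higher in SR (3.54% of all tested clusters) and 0 lower (2.79%), where 6.32% of clusters passed in either direction, and 18 of 26 differences were above 0 (41.5%). Over the named genes these shares were 7.55% higher and 66.7% above 0. Sv2a had 12.24, 11.96 and 11.98 in YSR, and in SR 12.02, 12.41 and 12.75 (lowest, median, highest). It was higher by 0.37 (0.05 to 0.69, adjusted p = 0.699 by limma), with 5 of 6 SR arrays above every YSR array. Vamp1 had 12.28, 11.76 and 11.88 in YSR and was higher in SR by 0.47 (0.06 to 0.87), with 3 of 6 SR arrays above every YSR array. Synj1 came next, with a difference of 0.15 (-0.04 to 0.35). The count was 0 without SR replicate 3, SR replicate 6, YSR replicate 2 or YSR replicate 3, and without SR replicate 1 it was 4, with Pclo and Rims2 lower in SR.

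In SSvsYSS 1 of 26 genes was higher in SS (3.86% of all tested clusters) and 0 lower (1.6%), where 5.46% of clusters passed in either direction, and 13 of 26 differences were above 0 (62%, and 48.5% of named genes). This was again Sv2a, at 11.81, 12.27 and 12.52 in SS (lowest, median, highest), higher by 0.39 (0.08 to 0.71, adjusted p = 0.810 by limma) with 5 of 6 SS arrays above every YSS array. Vamp1 differed by 0.40 (-0.01 to 0.80). Scamp5 had 10.38, 10.58 and 10.44 in YSS and 10.52 to 10.71 in SS, a difference of 0.17 (-0.03 to 0.37). Oligodendrocyte markers moved with this comparison, 5 of 6 tested being higher in SS at an unadjusted p under 0.05, among them Mog by 0.75 (0.34 to 1.15), and their part in the result was not tested. Without YSS replicate 2, SS replicate 4, SS replicate 6, CT replicate 4 or SR replicate 3, Vamp1 passed as well. Without YSS replicate 1, Sv2a did not pass (difference 0.30) and Nsf was the gene that did. Sv2a and Vamp1 had their lowest group means in YSS and their highest in SR.

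Vesicle release needs many genes beside these, and 116 further genes of the pathway were examined in 6 lists, of which 70 passed the filter. In SRvsCT 28 of the 70 were higher with an unadjusted p under 0.05, and 0 were lower, beside 15.9% of all clusters and 28% of named genes higher. They were 12 of 18 endocytosis genes, 10 of 14 vesicular transporters and proton pump subunits, 3 of 13 SNARE genes and SNARE regulators, 1 of 3 calcium sensors, 1 of 12 active zone genes and 1 of 10 vesicle proteins. The median difference was 0.23 in the endocytosis list and 0.23 in the transporter and pump list, and 0.01 in the active zone list. The adjusted test was passed by 3 of the 70, all higher in SR, beside 1.99% of all clusters and 11.1% of named genes tested as 1 cluster each. The clathrin light chains Cltb and Clta rose by 0.36 (0.18 to 0.54) and 0.22 (0.11 to 0.33), and Atp6ap1, an accessory subunit of the proton pump, rose by 0.39 (0.19 to 0.59), each with an adjusted p of 0.0381 by limma.

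For Cltb the CT mean was 10.31 ± 0.135 (SD, n = 6) and the SR mean 10.67 ± 0.104 (n = 6). For Clta they were 9.75 ± 0.0812 and 9.97 ± 0.0802. The Clta mean in CT lay below the 95th percentile of the negative controls of every CT array (9.82 to 10.21). Its call therefore rests on signal near background. All 6 SR arrays were above every CT array for both light chains, and 5 of 6 were for Atp6ap1. All 3 lost the call when 1 array was left out where that array was CT replicate 2, 3, 5 or 6, SR replicate 3, 4, 5 or 6, or SS replicate 3, with adjusted p for Cltb from 0.0505 (without SS replicate 3) to 0.104 (without CT replicate 3). With no filter on signal the adjusted p of Cltb, Clta and Atp6ap1 was 0.0683, 0.0720 and 0.0689, with equal array medians 0.0549, 0.135 and 0.0784, with the replicate block 0.0627, 0.0759 and 0.0671, and with only the 2 groups 0.162, 0.210 and 0.190. With quantile normalization Clta (0.0642) and Atp6ap1 (0.0594) lost the call. Without the arrays with extreme medians the values were 0.115, 0.102 and 0.113, and without both SR arrays high in Oxt 0.253, 0.253 and 0.276. In the other direction the smallest p were those of the active zone genes Ppfia2, a liprin (-0.12, -0.30 to 0.06), and Unc13c, a Munc13 (-0.18, -0.49 to 0.12).

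In SRvsSS 18 of the 70 genes were higher and 0 lower, beside 5.76% of all clusters and 13% of named genes higher, with 9 of 18 in the endocytosis list, 5 of 14 in the transporter and pump list and 0 of 12 in the active zone list. The smallest p were those of Stx7, an endosomal SNARE (0.25, 0.12 to 0.39), and Rph3a, the Rab3 effector rabphilin (0.33, 0.13 to 0.54), each with an adjusted p of 0.378 by limma, and 0 of the 70 were called. The smallest p among differences below 0 were those of the calcium channel subunit Cacna1a (-0.11, -0.31 to 0.09) and of Nrxn3 (-0.09, -0.25 to 0.08). In SSvsCT 1 was higher and 1 lower, beside 5.97% and 0.962% of all clusters. Nrxn3, a neurexin of the presynaptic membrane, differed by 0.18 (0.01 to 0.34). Slc17a7, which loads glutamate into the vesicles of cortical neurons, had a difference of -1.79 (-3.54 to -0.04), from 9.47 ± 1.45 in CT to 7.68 ± 0.981 in SS (SD, n = 6 each). It passed the filter (9.45), which rests on CT alone, only narrowly, and its SS mean lay below it. Its CT mean was also below the 95th percentile of the negative controls of every CT array (9.82 to 10.21). Nothing is therefore concluded from this difference. Next came Sh3gl3, an endophilin (0.16, -0.01 to 0.33), and Napg, a SNAP adaptor (-0.22, -0.46 to 0.01).

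**Figure D4:**
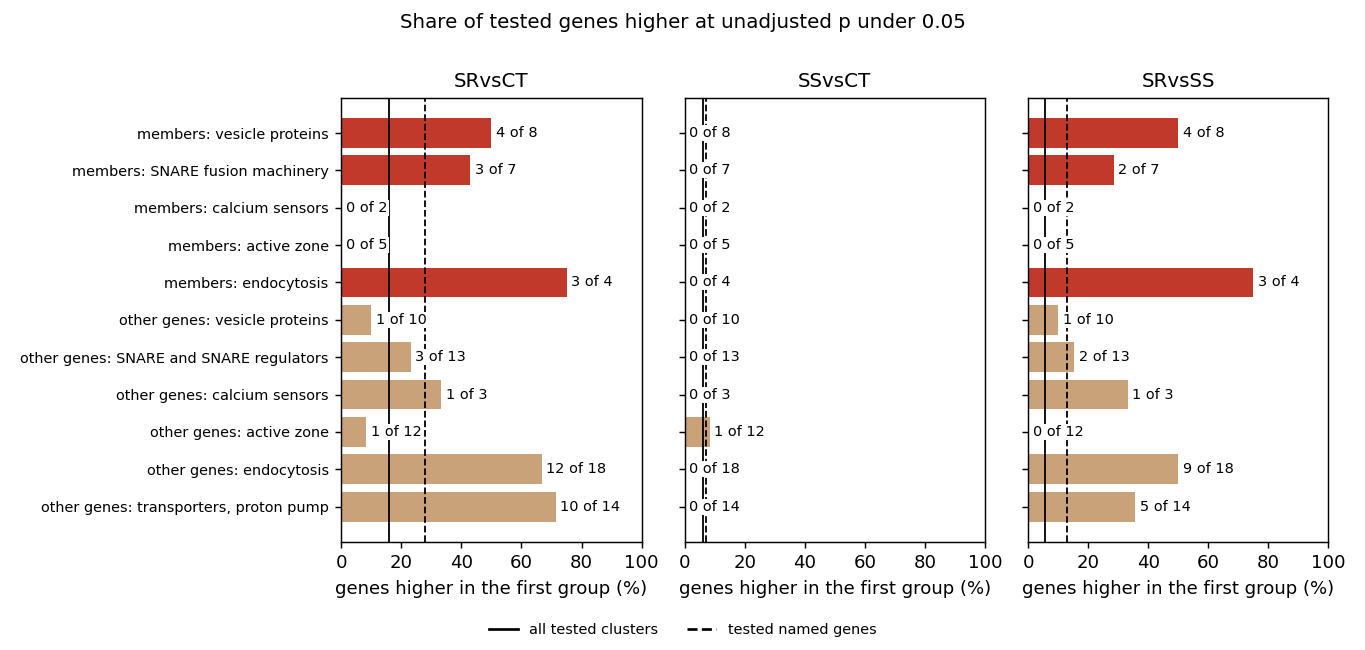
Share of tested genes that were higher in the first group at an unadjusted p under 0.05, by list, in SRvsCT, SSvsCT and SRvsSS. Red bars are the roles of the 26 genes, tan bars the further pathway genes, and the numbers give genes passing of genes tested. Lines mark all tested clusters (15.9%, 5.97% and 5.76%) and tested named genes (28%, 7.2% and 13%). In SRvsCT the active zone bars lie under both lines and the endocytosis bars above both.

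The promoters of 4 genes are shown because these genes were among those with differences at the unadjusted level and hold motifs of factors known to respond to neuronal activity. RefSeq promoters (GRCr8) were at hand for 24 of the 29 genes, and the 250 bases before the start of each were searched on both strands. The cAMP response element TGACGTCA, the palindromic site of CREB, was found in 3 of the 24 (Vamp1, Sh3gl2 and Syn1), in 1.59% of 33469 RefSeq promoters and in 3.44% of the 3110 promoters of tested genes. The Egr-type site GCGGGGGCG was found in 7 of the 24 (Syn2, Sh3gl2, Syt1, Vamp2, Nsf, Syn1 and Syp). It was found in 2.45% of all promoters and in 5.88% of those of tested genes. The GC box GGGCGG, which can overlap the Egr-type site, was found in 17 of the 24, in 30.5% and in 62.4%. The promoters were rich in G and C, with a median of 66.4% over the 24, 51.2% over all promoters and 62.4% over those of tested genes.

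The capitals mark the cAMP response element in Vamp1 (chr4:159698644-159698893, plus strand) and Sh3gl2 (chr5:104699020-104699269, plus strand), where it begins 71 and 66 bases before the start, and the Egr-type site in Nsf (chr10:89357384-89357633, minus strand) and Syp (chrX:17536450-17536699, minus strand), where it begins 14 and 65 bases before the start and reads, in Syp, as its reverse complement. Each is written 5′ to 3′ on the strand of the gene. Sh3gl2 also holds the Egr-type site, as its reverse complement, which is left in lower case.
Vamp1: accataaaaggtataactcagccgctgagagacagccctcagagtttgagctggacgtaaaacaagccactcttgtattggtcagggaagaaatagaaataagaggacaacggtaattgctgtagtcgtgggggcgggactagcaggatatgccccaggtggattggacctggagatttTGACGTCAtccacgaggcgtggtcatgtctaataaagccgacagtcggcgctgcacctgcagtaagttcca
Sh3gl2: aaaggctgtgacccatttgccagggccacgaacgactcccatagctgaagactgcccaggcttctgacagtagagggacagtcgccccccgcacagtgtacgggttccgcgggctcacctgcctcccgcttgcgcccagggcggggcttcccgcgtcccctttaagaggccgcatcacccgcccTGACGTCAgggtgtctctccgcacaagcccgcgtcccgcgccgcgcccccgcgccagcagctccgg
Nsf: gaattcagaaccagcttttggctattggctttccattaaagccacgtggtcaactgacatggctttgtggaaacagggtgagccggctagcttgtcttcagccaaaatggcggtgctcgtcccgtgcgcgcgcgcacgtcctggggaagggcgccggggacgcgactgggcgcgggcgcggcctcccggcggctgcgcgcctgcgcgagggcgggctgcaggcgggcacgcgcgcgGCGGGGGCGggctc
Syp: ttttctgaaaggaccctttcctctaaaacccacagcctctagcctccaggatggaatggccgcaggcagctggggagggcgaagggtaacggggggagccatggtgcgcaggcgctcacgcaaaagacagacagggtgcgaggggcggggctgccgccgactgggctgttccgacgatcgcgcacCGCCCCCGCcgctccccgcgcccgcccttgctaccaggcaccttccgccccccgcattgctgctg
A motif match is a description of these letters and not a sign that a factor binds.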

How the data were processed

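Gene expression was measured with 1 rat whole-transcript array per rat, 24 in all. Per the labels and the methods, total RNA of good quality was biotin-labelled and hybridized by the authors, and the array signals were normalized in Affymetrix Expression Console. The log2 signals deposited by the authors were used as they stood, for 68842 clusters with 1738 control rows left out, and 0 columns were left unmapped. The deposited tables also hold the authors' group averages, fold changes and p-values, which were not used. No source used here names their genome build or normalization settings.

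Groups were taken from the array labels. Clusters whose CT mean lay above the CT mean of the bioB spike (9.45) were kept (9044), and a linear model of the 5 groups was fitted with limma 3.58.1 in R 4.3.3, with moderated tests of 8 contrasts and of all groups and Benjamini-Hochberg adjustment over the 9044 clusters. A call is an adjusted p under 0.05. Intervals are 95% intervals of the log2 difference. Levels of different clusters were not set against each other, since probes differ in brightness. Each array is 1 rat, and the number of arrays limits the precision. No arrays were identical (0 pairs).

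Genes were found by symbol and grouped by role. The 29 genes, the pathway lists and the marker lists were chosen with earlier results of these data known. Per-array values are given for the 3 genes with the smallest p in each comparison, and other genes are named by role. Of the pathway lists, those past the adjusted test or with the smallest p are named. Summed marker levels are log2 of the summed linear signals of a list. Negative controls (1153) gave the background of each array. The model was tested on simulated data first. Alternatives were no filter, a filter over all arrays, quantile normalization, equal array medians, array weights, moderation with trend and robust settings, 1 cluster per gene, only the 2 groups compared, a replicate block and leaving out each array. Leaving out the arrays with extreme medians, or with oxytocin above background, was added after seeing the data. Promoters were taken from RefSeq (GRCr8), and tables were handled in Python 3.11.15.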

Additional observations from a re-analysis of the deposited data

Results flagged for a closer look

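Of 123 groups of 6 arrays examined over the named genes, 6 held an array far from the other 5 by Dixon's criterion, and chance flags about 1 in 20 groups. SR replicate 1 accounted for 3 of these. Its Pclo signal was 13.87 on the log2 scale, against 13.19 to 13.30 in the other SR arrays. Its signal of Nrxn3, a neurexin of the active zone list, was 14.22, against 13.72 to 13.91. Its signal of the Rab3 effector Rph3a was 10.36, against 10.74 to 10.96. The 6 flags in 123 groups are near the 1 in 20 that chance gives, so that no trait of this array is read from them. SR replicate 1 was the highest SR array for 5 of 5 active zone genes and the lowest for 4 of 4 endocytosis genes. Of 8 tested vesicle proteins it was the lowest for 4 and the highest for 1 (Scamp5).

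SS replicate 4, the array with the highest median signal, accounted for 2. Its Syngr3 signal was 9.65, against 10.12 to 10.23 in the other SS arrays, and its Cplx1 signal was 14.03, against 14.37 to 14.47. Without SS replicate 4 the count of genes higher in SRvsSS at an unadjusted p under 0.05 was 4, where it was 9 with all arrays. The last was the Vamp1 signal of CT replicate 4, at 12.60 against 11.85 to 12.09 in the other CT arrays.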

How the results depend on the processing

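Array weights gave the most calls at an adjusted p under 0.05 (limma): 7 in SRvsCT (Cplx2, Dnm1, Nsf, Rab3a, Sv2a, Syp and Vamp1), 4 in SRvsSS (Amph, Dnm1, Sh3gl2 and Syngr3) and 2 in the F test (Sv2a and Vamp1), where there were 0 with equal weights. With 1 cluster per gene, 3 were called in SRvsCT (Dnm1, Nsf and Rab3a), beside 11.1% of all tested named genes. The shares of all clusters called with array weights are not given here. The other settings on all arrays gave 0 calls.

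At an unadjusted p under 0.05, array weights gave 13 genes in SRvsCT (12 higher and 1 lower in SR, Vamp2 among the 13). They gave 16 genes in SRvsSS (14 higher and 2 lower in SR) and 12 in the F test. There were 0 in SSvsCT, 3 in YSRvsCT, 0 in YSSvsCT, 2 in YSRvsYSS, 4 in SRvsYSR and 3 in SSvsYSS. SRvsCT held 5 with quantile normalization and 4 with equal array medians, all higher, beside 15.4% and 10.9% of all clusters higher. SSvsCT held 1 (Rims1) with each. YSSvsCT held 2 (Sv2a and Vamp1) with quantile normalization, equal array medians, no filter, 1 cluster per gene and only the 2 groups. The replicate numbers did not pair the arrays (39 same-number pairs, correlations of deviations from -0.55 to 0.57, 13 over 0.1, and 7 of 24 arrays closest to their own number). With the replicate block the counts were 6 in SRvsCT, 2 in YSRvsCT, 0 in YSSvsCT and 5 in the F test.

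Without CT replicate 3 and SS replicate 4, the arrays with extreme medians, they were 6 in SRvsCT, 5 in SRvsSS, 2 in YSSvsCT and 2 in SSvsYSS. Without SR replicates 3 and 6, both high in oxytocin, they were 4 in SRvsCT, 3 in SRvsSS, 0 in SRvsYSR, 2 in YSSvsCT, 2 in SSvsYSS and 1 in the F test. There the difference of Cacna1a in SRvsSS turned from -0.11 to 0.0042, with an unadjusted p over 0.05 both times. Both settings were chosen after seeing the data.

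With 1 array left out, calls ran from 0 to 4 in SRvsCT, from 0 to 2 in SRvsSS and from 0 to 0 in the F test. The shares of all clusters in these fits are not given here. Unadjusted counts, in either direction, ran from 4 to 15 in SRvsCT and SRvsSS (15 without SR replicate 1, 13 higher and 2 lower), 0 to 4 in SRvsYSR, 0 to 1 in SSvsCT and YSRvsCT, 1 to 2 in SSvsYSS, 0 to 2 in YSRvsYSS and YSSvsCT, and 3 to 11 in the F test (3 without SR replicate 3 or SR replicate 6). The median difference over the 26 genes kept its sign in SRvsCT and SRvsSS under each setting run (0.15 and 0.21 with quantile normalization). Other clusters of the same symbol were not run, since each gene has 1 cluster. The causes of these shifts were not tested. Signal near the negative controls limits Unc13a, Bsn, Syngr3 and Sv2b, which were above their 95th percentile on 1, 15, 16 and 20 of 24 arrays. It also limits Clta of the pathway lists, whose CT mean lay below that percentile of every CT array.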
